A study of Mus musculus with 12 samples.

Results

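Visceral endoderm is the outer cell layer of the early mouse embryo. The 9 genes described here encode proteins it is known to secrete, together with a transcription factor that drives many of them. The genes are Afp, Ttr, Apoa1, Apob, Apoe, Apom, Trf, Rbp4 and Hnf4a. They were chosen by symbol from the 23412 genes of the count table. RNA-seq, a bulk measure of transcripts per gene, was run on male v6.5 mouse embryonic stem cells (mESCs) kept on gelatin in medium with serum and LIF, with RNA taken from 6-well plates. There were 12 libraries, 3 biological replicates for each of 4 genotypes, named WT, Hmgn1-/-, Hmgn2-/- and Hmgn1-/-Hmgn2-/-. Both Hmgn1 alleles of the Hmgn1-/- line lack 1 bp in exon 3, and both Hmgn2 alleles of the Hmgn2-/- line have 1 bp inserted in exon 4. Hmgn1-/-Hmgn2-/-, called the double knockout here, carries both changes, since Hmgn1 was edited in cells of the Hmgn2-/- line to make it. Each knockout line came from a single edited cell and is 1 clone. Differences from WT therefore belong to these clones, and an effect of the clone cannot be told apart from that of the genotype. The library totals were 31448468, 17614490 and 28524108 counts in WT replicates 1 to 3, and 25953244, 21059862 and 21993042 in Hmgn1-/-. They were 25908890, 26486535 and 17337908 in Hmgn2-/-, and 31005479, 22151507 and 26410485 in the double knockout.

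Visceral endoderm takes up nutrients from the maternal side and, before the liver exists, makes serum proteins and lipoproteins for the embryo. Hnf4a, a nuclear receptor, is needed in this layer for the transcription of many of these genes, and it acts in the liver in the same way later. Undifferentiated mESCs belong to another lineage, the epiblast, and the secreted proteins are widely used as markers of its endoderm neighbours.

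The targeted genes were examined first as a check of the labels. Levels are given as TMM CPM, the CPM value after scaling of each library total by the trimmed mean of M values in edgeR. Hmgn1 was at 661, 594 and 612 TMM CPM in WT replicates 1 to 3, at 138, 139 and 142 in Hmgn1-/-, at 546, 556 and 639.7 in Hmgn2-/-, and at 21.6, 19.9 and 21.5 in the double knockout. Hmgn2 was at 137, 121 and 119 TMM CPM in WT, at 106, 113 and 109 in Hmgn1-/-, at 50.9, 54.5 and 53.7 in Hmgn2-/-, and at 53.9, 50.5 and 54.5 in the double knockout. In each targeted gene, the libraries of the lines edited in it lay below every WT library. For Hmgn2 this also held in Hmgn1-/-, which was not edited in it, at 106 to 113. The lines edited in Hmgn2 were lower still, at 50.5 to 54.5. The labelled cell type was checked on 16 pluripotency markers, whose summed level ran from 7533 to 8827 TMM CPM over the 12 libraries, with Pou5f1 the most abundant. Members of that sum moved both ways. Klf4 had a mean of 125 TMM CPM in WT and of 240, 202 and 211 in Hmgn1-/-, Hmgn2-/- and the double knockout. Nanog had a mean of 256 in WT and of 206, 181 and 188 in the same order. Of 13 hepatocyte markers, 11 stayed at or under 3 counts in each of the 12 libraries, Alb among them with 0 counts throughout, and the summed level ran from 0.189 to 0.656 TMM CPM. The defining markers of liver cells were thus at or near 0.

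The 9 genes differed widely in level, and most were close to the limit of detection. Between genes, levels are compared as RPKM, the TMM-scaled value per kilobase of exon. In WT, Apoe had 256 ± 6.72 RPKM (SD, n = 3) and ranked at 154 among the 21737 genes with an exon length. Trf followed at 3.92 ± 0.774 RPKM, Apom at 1.46 ± 0.302, Rbp4 at 0.766 ± 0.102 and Apoa1 at 0.229 ± 0.0411 (SD, n = 3 each). These 5 genes did not overlap with their neighbours in that order over the 3 WT libraries. Hnf4a at 0.0899 ± 0.0290 RPKM and Apob at 0.0533 ± 0.0233 came next (SD, n = 3 each), and the ranges of this pair overlapped. Afp and Ttr were last, at or under 3 counts, the limit used here for a gene not detectable above counting error, in each library. In Hmgn1-/- and in Hmgn2-/-, Apom and Rbp4 overlapped, with means of 0.605 and 0.546 RPKM in Hmgn1-/- and of 0.637 and 0.581 in Hmgn2-/-. In the double knockout the pair overlapped as well, at 0.894 ± 0.335 and 0.530 ± 0.140 RPKM (SD, n = 3 each). The order changed there at 1 place: Hnf4a, at 0.318 ± 0.0467 RPKM, lay above Apoa1, at 0.214 ± 0.00611, with 0.284 as the lowest value of Hnf4a and 0.219 as the highest of Apoa1. The rank of Hnf4a by RPKM was 13784 in WT and 11774 in the double knockout.

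**Figure D1:**
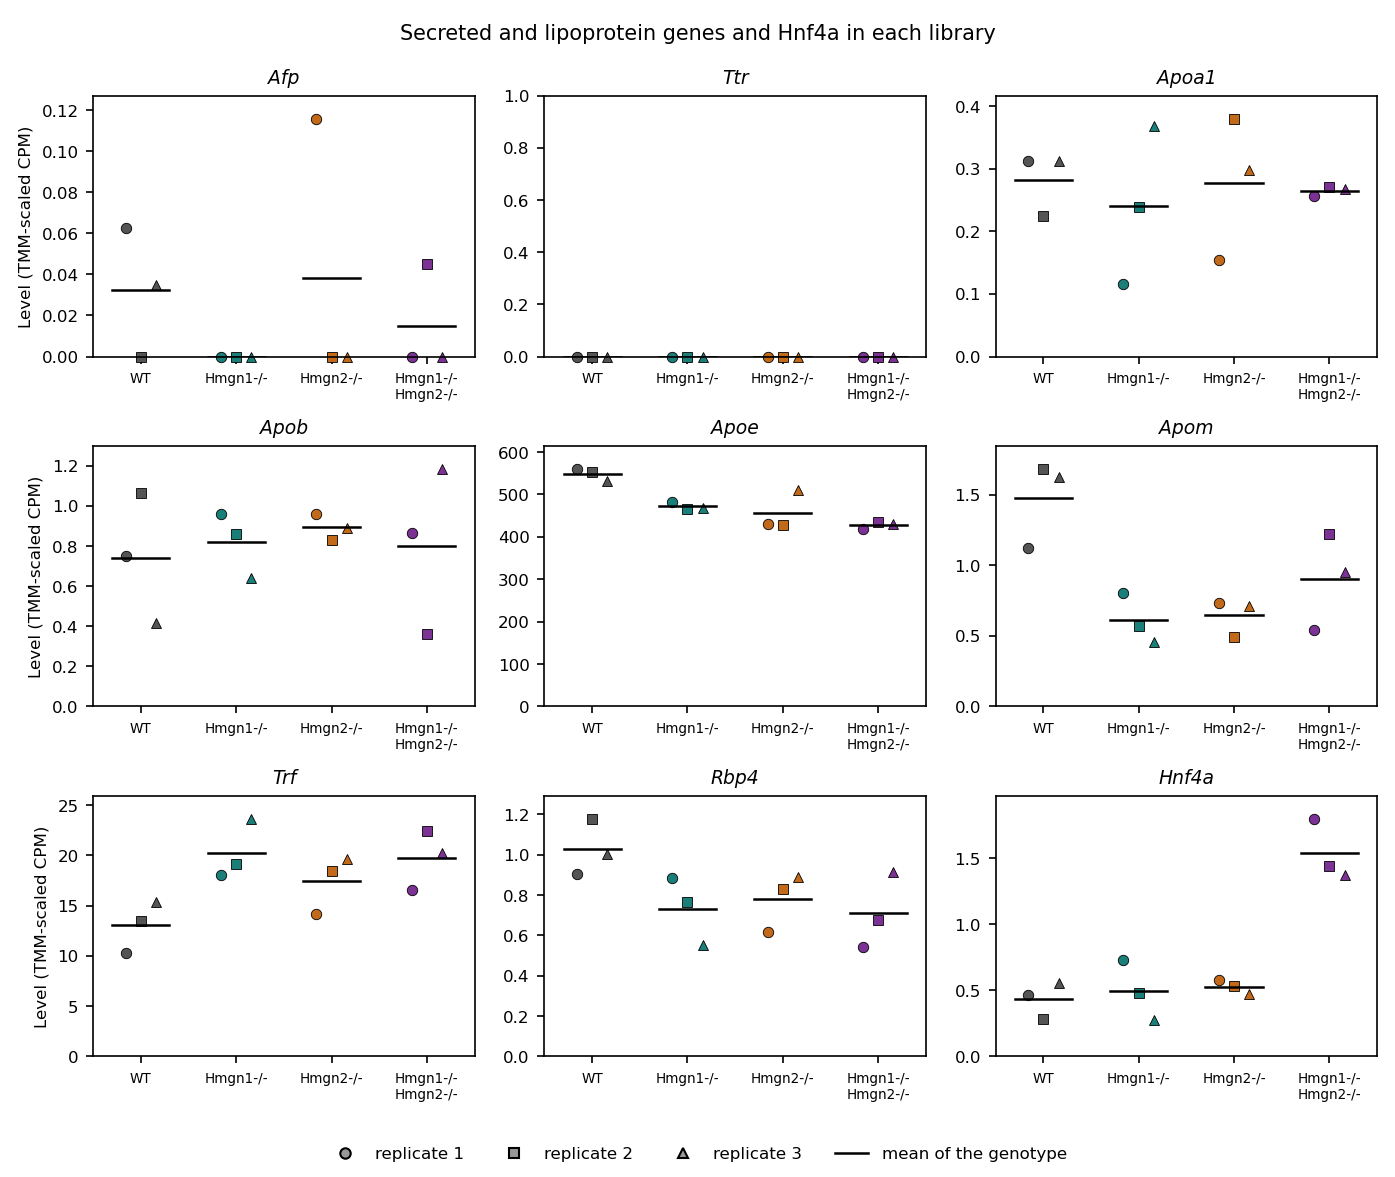
Levels of the 9 genes in each of the 12 libraries, as TMM CPM on an axis of its own for each gene; points are libraries and bars are the means of 3 replicates. Hnf4a stands higher in the 3 double knockout libraries (1.37 to 1.79) than in the other 9 (0.276 to 0.730), Apoe lies lower in every knockout library than in WT, and Ttr has no count in any library.

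Hnf4a is the transcription factor of the group. It lies at chr2:163506811-163572907 on the plus strand of GRCm38 (mm10). Its counts were 15, 5 and 16 in WT replicates 1 to 3, 19, 10 and 6 in Hmgn1-/-, 15, 14 and 8 in Hmgn2-/-, and 56, 32 and 36 in the double knockout. As TMM CPM these were 0.468, 0.280 and 0.554 in WT, 0.730, 0.478 and 0.276 in Hmgn1-/-, 0.577, 0.530 and 0.476 in Hmgn2-/-, and 1.79, 1.44 and 1.37 in the double knockout. The 3 double knockout libraries were the highest of the 12, and the other 3 genotypes overlapped. Hnf4a rose in the double knockout against WT with a log2 FC of 1.76 (SE 0.316, 95% confidence interval 1.08 to 2.44, adjusted p 0.000884 by edgeR's quasi-likelihood test, Benjamini-Hochberg adjusted), a fold of 3.39. All 3 double knockout libraries were higher than every WT library. In bulk RNA, a change in the number of cells of a type and a change in RNA per cell cannot be told apart. Against WT the log2 FC was 0.16 in Hmgn1-/- (SE 0.432) and 0.24 in Hmgn2-/- (SE 0.365), neither past the test. Even after the rise the level was low, at 124 counts in the 3 double knockout libraries together.

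Whether Hnf4a in the double knockout differed from the single knockouts was tested directly. Against Hmgn1-/- the log2 FC was 1.60 (95% confidence interval 0.89 to 2.32, adjusted p 0.0209 by edgeR's quasi-likelihood test, Benjamini-Hochberg adjusted), and the groups did not overlap. Against Hmgn2-/-, the line from which the double knockout was made, it was 1.53 (95% confidence interval 0.94 to 2.12, adjusted p 0.0626 by edgeR's quasi-likelihood test, Benjamini-Hochberg adjusted). Neither passed the limits of an adjusted p under 0.01 and a log2 FC of at least 1 in size, the study's own limits, used here for every call. The departure from additivity, the log2 FC of the double knockout less the sum of those of the single knockouts, was 1.37 (SE 0.503, adjusted p 0.0878 by edgeR's quasi-likelihood test, Benjamini-Hochberg adjusted). The intervals of the differences from both single knockouts thus lay above 0 while their adjusted p-values missed the limit. Against Hmgn1-/- 3 alternatives called Hnf4a: a limit of 0.05 on the adjusted p, no filter (adjusted p 0.00224) and a replicate block (0.00221, the last pair by edgeR's quasi-likelihood test, Benjamini-Hochberg adjusted; 0.00221 to 0.104 over the alternatives), although the pairing check does not allow the block there.

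RefSeq gives Hnf4a an upstream and a downstream start, and reads counted per gene do not tell them apart. The upstream promoter window of Hnf4a runs from 250 bases before to 50 bases after the start. That start is chr2:163506857, which lies inside the bounds of the gene given above. The window is shown because Hnf4a is the gene of the group that was called. The windows of Afp and Apoa1 are set beside it as secreted proteins that were barely detected. The sequences are those of RefSeq on GRCm38, 5' to 3', all on the plus strand: Hnf4a upstream from chr2:163506607-163506906, Afp from chr5:90490464-90490763 and Apoa1 from chr9:46228380-46228679. Capitals mark exact matches, on either strand, to AGGTCA and CAAAGTCC for HNF4, TGTTTAC and TGTTTGC for FOXA factors, and AGATAA for GATA factors.
Hnf4a upstream: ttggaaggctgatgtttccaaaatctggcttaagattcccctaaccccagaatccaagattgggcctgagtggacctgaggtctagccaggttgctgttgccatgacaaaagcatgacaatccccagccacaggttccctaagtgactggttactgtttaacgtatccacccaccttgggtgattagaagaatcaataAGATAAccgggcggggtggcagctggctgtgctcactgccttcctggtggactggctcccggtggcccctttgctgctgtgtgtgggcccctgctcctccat
Afp: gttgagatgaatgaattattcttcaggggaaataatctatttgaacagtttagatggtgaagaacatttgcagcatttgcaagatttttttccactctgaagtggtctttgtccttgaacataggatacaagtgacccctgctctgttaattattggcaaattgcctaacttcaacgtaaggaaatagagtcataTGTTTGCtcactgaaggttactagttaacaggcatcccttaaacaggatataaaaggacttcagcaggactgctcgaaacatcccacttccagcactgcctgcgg
Apoa1: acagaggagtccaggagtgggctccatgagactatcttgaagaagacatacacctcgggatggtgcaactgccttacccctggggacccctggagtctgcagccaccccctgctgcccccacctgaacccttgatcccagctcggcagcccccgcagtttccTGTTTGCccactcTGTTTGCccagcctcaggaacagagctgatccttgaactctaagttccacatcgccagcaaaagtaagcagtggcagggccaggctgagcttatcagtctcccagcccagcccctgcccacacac
The upstream window of Hnf4a holds AGATAA, with its first base 52 bases before the start. Afp holds TGTTTGC 55 bases before its start, and Apoa1 holds TGTTTGC 88 and 75 bases before its start. Promoter windows of 7 of the 9 genes were searched, 11 in all, and 6 of the 11 hold at least 1 of these motifs: besides the 3 above, a window each of Apob (TGTTTGC), Apoe (TGTTTAC) and Rbp4 (TGTTTAC). By motif, 3 windows hold TGTTTGC, 2 TGTTTAC and 1 AGATAA. The downstream window of Hnf4a holds none of these. Neither HNF4 motif was found in these 11 windows as an exact match, and no matches overlapped. Sequences that differ from these motifs by a letter were not searched. Of all 32851 windows of this length, 16.3% hold AGGTCA, 1.42% CAAAGTCC, 3.65% TGTTTAC, 5.07% TGTTTGC and 11.2% AGATAA. A match is a description of letters and not of a bound site, and the lack of an exact match does not show that a site is absent.

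Afp, Ttr and Apoa1 are plasma proteins: Afp is the fetal carrier related to albumin, Ttr carries thyroid hormone and, with Rbp4, retinol, and Apoa1 is the main protein of high-density lipoprotein. Afp (chr5:90490714-90508907, plus strand) had 2, 0 and 1 counts in WT, 0 in each Hmgn1-/- library, 3, 0 and 0 in Hmgn2-/-, and 0, 1 and 0 in the double knockout, 7 counts in all. Ttr (chr18:20664209-20674326, plus strand) had 0 counts in all 12 libraries, which over their 295894018 counts allows a level of up to 0.0101 CPM, counting error only. Apoa1 (chr9:46228630-46230469, plus strand) had 10, 4 and 9 counts in WT, 3, 5 and 8 in Hmgn1-/-, 4, 10 and 5 in Hmgn2-/-, and 8, 6 and 7 in the double knockout. The 4 genotypes overlapped in Apoa1, and its highest group mean was that of WT, at 0.283 ± 0.0508 TMM CPM (SD, n = 3). These 3 genes were under edgeR's filter on low counts in every comparison, so 6 of the 9 were tested. Without the filter Apoa1 was at log2 FCs of -0.29, -0.07 and -0.13 in Hmgn1-/-, Hmgn2-/- and the double knockout (adjusted p 0.785, 0.963 and 0.905 by edgeR's quasi-likelihood test, Benjamini-Hochberg adjusted), and neither it nor Afp was called. No rise of Afp, Ttr or Apoa1 was seen beside that of Hnf4a.

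Apob, Apoe and Apom are the lipoprotein genes that were tested. Apoe (chr7:19696244-19701310, minus strand) encodes a ligand of the lipoprotein receptors and is made by many cell types. It was at 559, 553 and 532 TMM CPM in WT replicates 1 to 3, at 483, 466 and 468 in Hmgn1-/-, at 431, 428 and 510.0 in Hmgn2-/-, and at 419.7, 436 and 430.1 in the double knockout. All 9 knockout libraries lay below all 3 WT libraries, with Hmgn2-/- replicate 3 nearest to WT. On the log2 scale Apoe fell by 0.22 in Hmgn1-/- (SE 0.0497, adjusted p 0.00441) and by 0.36 in the double knockout (SE 0.0501, adjusted p 0.000117, both by edgeR's quasi-likelihood test, Benjamini-Hochberg adjusted). In Hmgn2-/- it was -0.26 (SE 0.0866, adjusted p 0.0568 by edgeR's quasi-likelihood test, Benjamini-Hochberg adjusted). That p was 0.000887 without Hmgn2-/- replicate 3, 0.117 to 0.244 without any other single library and 0.00624 in a fit of all 12 libraries (0.000887 to 0.244 over the alternatives). The falls were under the fold limit in all 3 knockouts and so were not called. In Hmgn2-/- the adjusted p of 0.0568, by edgeR's quasi-likelihood test, Benjamini-Hochberg adjusted, missed the limit of 0.01 as well. For Hmgn1-/- the adjusted p of Apoe passed 0.01 in a fit of all 12 libraries, at 0.0211, and with 1 library left out: it was 0.0201 without WT replicate 2, 0.0125 without WT replicate 3, and 0.0273 and 0.0112 without Hmgn1-/- replicates 2 and 3, by edgeR's quasi-likelihood test, Benjamini-Hochberg adjusted. For the double knockout it reached at most 0.00126 with a library left out. A replicate block gave Apoe an adjusted p of 0.00149 in Hmgn1-/- and 8.85e-05 in the double knockout, by edgeR's quasi-likelihood test, Benjamini-Hochberg adjusted (0.000535 to 0.0273 and 4.79e-09 to 0.00126 over the alternatives).

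Apom (chr17:35128997-35131801, minus strand) encodes a lipocalin that carries sphingosine-1-phosphate on lipoproteins. Its counts were 36, 30 and 47 in WT replicates 1 to 3, 21, 12 and 10 in Hmgn1-/-, 19, 13 and 12 in Hmgn2-/-, and 17, 27 and 25 in the double knockout. As TMM CPM these were 1.12, 1.68 and 1.63 in WT, 0.807, 0.573 and 0.460 in Hmgn1-/-, 0.731, 0.492 and 0.713 in Hmgn2-/-, and 0.545, 1.22 and 0.954 in the double knockout. Both single knockouts lay below WT in every library, and the double knockout overlapped with WT. The log2 FC was -1.23 in Hmgn1-/- (SE 0.320, adjusted p 0.0107), -1.18 in Hmgn2-/- (SE 0.307, adjusted p 0.0201) and -0.72 in the double knockout (SE 0.324, adjusted p 0.115, all by edgeR's quasi-likelihood test, Benjamini-Hochberg adjusted). With the replicate number as a block, which the pairing check allows for Hmgn1-/- against WT, Apom was called at -1.22 (adjusted p 0.00669 by edgeR's quasi-likelihood test, Benjamini-Hochberg adjusted; 0.00298 to 0.0477 over the alternatives). Without WT replicate 1 it was called too, at -1.41. Its departure from additivity was 1.70 (SE 0.492, adjusted p 0.0328 by edgeR's quasi-likelihood test, Benjamini-Hochberg adjusted), so that Apom in the double knockout was nearer to WT than the sum of the single knockouts, short of the limit on p. Apob (chr12:7977629-8016839, plus strand), the structural protein of low-density lipoproteins, had 8 to 31 counts in a library. Its group means were 0.743, 0.821, 0.896 and 0.803 TMM CPM in WT, Hmgn1-/-, Hmgn2-/- and the double knockout, and all groups overlapped.

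Trf and Rbp4 carry iron and retinol. Trf (chr9:103208876-103230286, minus strand) encodes transferrin, which delivers iron to cells through the receptor Tfrc. It was at 10.3, 13.4 and 15.4 TMM CPM in WT replicates 1 to 3, at 18.1, 19.1 and 23.6 in Hmgn1-/-, at 14.2, 18.4 and 19.7 in Hmgn2-/-, and at 16.6, 22.4 and 20.2 in the double knockout. Hmgn1-/- and the double knockout lay above WT in every library, while Hmgn2-/- overlapped with WT. Trf rose by a log2 FC of 0.63 in Hmgn1-/- (SE 0.143, adjusted p 0.00434) and of 0.59 in the double knockout (SE 0.146, adjusted p 0.00728, both by edgeR's quasi-likelihood test, Benjamini-Hochberg adjusted), under the fold limit. In Hmgn2-/- it was 0.42 (SE 0.168, adjusted p 0.112 by edgeR's quasi-likelihood test, Benjamini-Hochberg adjusted). With the replicate number as a block, which the pairing check allows for Hmgn1-/- and the double knockout against WT, the adjusted p was 1.34e-05 and 0.000293 by edgeR's quasi-likelihood test, Benjamini-Hochberg adjusted (1.34e-05 to 0.0306 and 0.00027 to 0.0438 over the alternatives). Without the block, a fit of all 12 libraries moved it past 0.01, to 0.0102 and 0.0142, as thinned counts did in the double knockout (0.0145), and leaving out 1 library could do so. For Hmgn1-/- the adjusted p by edgeR's quasi-likelihood test, Benjamini-Hochberg adjusted was 0.0123 without WT replicate 2 and 0.0111 and 0.0306 without Hmgn1-/- replicates 2 and 3. For the double knockout it was 0.0121 and 0.0164 without WT replicates 1 and 2, and 0.0438 and 0.0291 without double knockout replicates 2 and 3, by edgeR's quasi-likelihood test, Benjamini-Hochberg adjusted. In the GENCODE annotation 63.5% of the exon bases of Trf are shared with Gm20425 on the same strand, which has no entry of its own in the count table, so reads of the pair cannot be told apart. Rbp4 (chr19:38116620-38125321, minus strand), the retinol carrier of plasma, ran from 0.906 to 1.18 TMM CPM in WT, from 0.551 to 0.884 in Hmgn1-/-, from 0.616 to 0.892 in Hmgn2-/- and from 0.545 to 0.915 in the double knockout. Both single knockouts lay below WT without overlap in Rbp4, at log2 FCs of -0.46 (SE 0.309) and -0.39 (SE 0.294), neither past the test. The double knockout was at -0.52 (SE 0.311), overlapped with WT and was not past the test either.

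**Figure D2:**
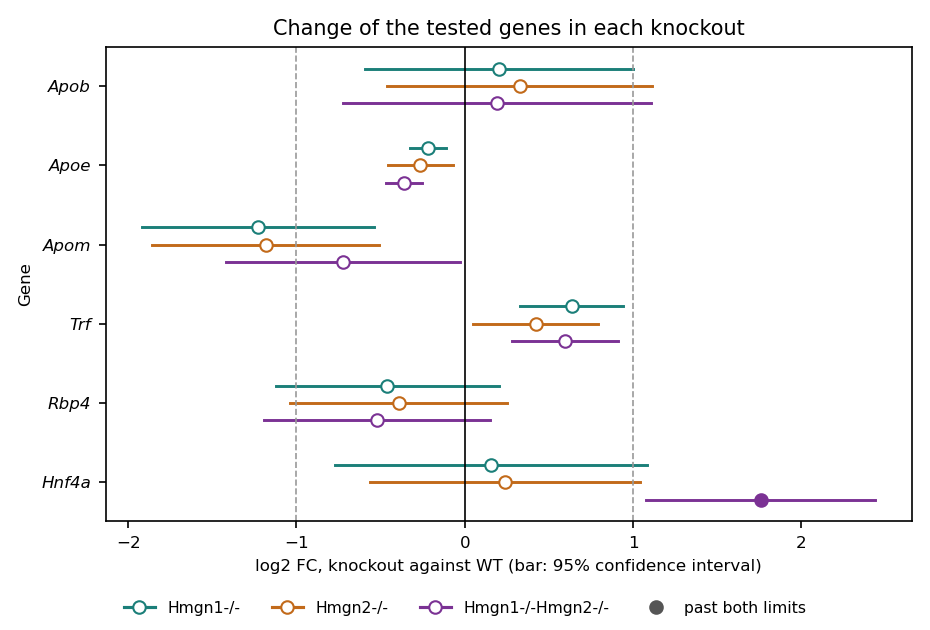
Log2 FC against WT of the 6 genes that could be tested, with 95% confidence intervals, for each knockout; filled points were called. The interval of Hnf4a in the double knockout runs from 1.08 to 2.44, and those of Apob and Rbp4 cross 0 in each knockout.

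The calls among the 9 genes are read against those among all genes tested. The knockouts share the WT libraries, so their comparisons are not independent of each other. In Hmgn1-/- against WT, edgeR's test called 0 of the 6 genes tested, with 3 at an unadjusted p under 0.05 and 0 called by DESeq2, while 0.898% of 13917 genes were called higher and 5.08% lower. In Hmgn2-/- against WT it called 0 of 6, with 3 at an unadjusted p under 0.05 and 0 called by DESeq2, while 0.776% of 14047 genes were called higher and 4.38% lower. For the double knockout against WT it called 1 of 6, with 4 at an unadjusted p under 0.05. The gene called was Hnf4a, which was higher and was called by DESeq2 too. Of 14128 genes, 1.3% were called higher and 5% lower. The share of all genes at that unadjusted limit is not given here. Leaving the fold limit aside, 2 genes of the group reached an adjusted p under 0.01 in Hmgn1-/- (Apoe, Trf), beside 17.3% of all genes tested, and 3 did in the double knockout (Hnf4a, Apoe, Trf), beside 18%. In Hmgn2-/- 0 did, with 3 at an unadjusted p under 0.05 by edgeR and a lowest adjusted p of 0.0327 by DESeq2, beside 9.97% of all genes. Groups did not overlap for 4 of the 6 genes in Hmgn1-/- (Apoe, Apom and Rbp4 lower, Trf higher), against 42.5% of all genes tested, and for 3 in Hmgn2-/- (Apoe, Apom and Rbp4, all lower), against 36.1%. For 3 they did not overlap in the double knockout (Apoe lower, Trf and Hnf4a higher), against 42.6%. With 6 genes, these shares are descriptions and no test of the group. The median log2 FC of the 6 was -0.03, -0.01 and -0.08 in the 3 knockouts, beside 0.00, 0.01 and 0.00 over all genes tested.

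Between the knockouts, edgeR's test called 0 of the 6 genes in each of the 3 comparisons and DESeq2 called 0 as well. In Hmgn2-/- against Hmgn1-/-, where 0.0586% of 13648 genes were called higher and 0.117% lower, 0 of the 6 genes had an unadjusted p under 0.05. In the double knockout against Hmgn1-/-, 2 of the 6 did (Hnf4a and Apoe), and 0.35% of 13710 genes were called higher and 0.16% lower. In the double knockout against Hmgn2-/-, 1 did (Hnf4a), and 0.0362% of 13816 genes were called higher and 0.00724% lower. Those were 6 genes, and a replicate block, which the pairing check allows there, gave 32 calls, Hnf4a not among them. The 6 became 12 without Hmgn2-/- replicate 1 and 3 without double knockout replicate 1, and 1 without Hmgn2-/- replicate 2, double knockout replicate 2 or double knockout replicate 3. For the departure from additivity, 0 of the 6 genes were called by edgeR and 0 by DESeq2, with 2 at an unadjusted p under 0.05 (Apom and Hnf4a), while 2.98% of 14323 genes were called higher and 0.503% lower.

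Genes that work with the 9 were taken from lists of the same pathways. The list of liver and visceral endoderm transcription factors holds 21 genes, of which Nr5a2 was the most abundant. In Hmgn1-/- 3 of 14 tested were called and in Hmgn2-/- 3 of 16, all higher: Sox17, Gata4 and Gata6. Of 16 tested in the double knockout, 5 were called higher, the same 3 with Foxa2 and Sox7. Others of the list lay lower under the fold limit: Otx2, at log2 FCs of -0.77, -0.97 and -0.81, and Eomes, at -0.65, -0.46 and -0.69. Gata6, which starts the primitive endoderm program, was at 1.31, 1.96 and 1.70 TMM CPM in WT, at 10.4, 8.65 and 7.40 in Hmgn1-/-, at 12.7, 13.2 and 7.91 in Hmgn2-/-, and at 25.3, 27.5 and 22.7 in the double knockout. Foxa2, a forkhead factor of endoderm, was at 0.406, 0.672 and 0.484 TMM CPM in WT, at 1.61, 0.812 and 0.827 in Hmgn1-/-, at 1.12, 1.10 and 0.714 in Hmgn2-/-, and at 1.86, 2.44 and 1.95 in the double knockout. Gata6 did not overlap between WT, the single knockouts and the double knockout. Foxa2 lay above WT in every knockout library. All 5 genes called in the double knockout had, like Hnf4a, their 3 highest values there. The log2 FC of Gata6 against WT was 2.44, 2.81 and 3.95 in Hmgn1-/-, Hmgn2-/- and the double knockout, and that of Foxa2 was 1.12, 0.98 and 2.03. Sox17 had log2 FCs of 3.37, 3.66 and 4.75, and Gata4 2.55, 2.83 and 3.73. Set beside these, the log2 FC of Hnf4a of 1.76 in the double knockout was smaller than that of the 5 genes called.

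**Figure D3:**
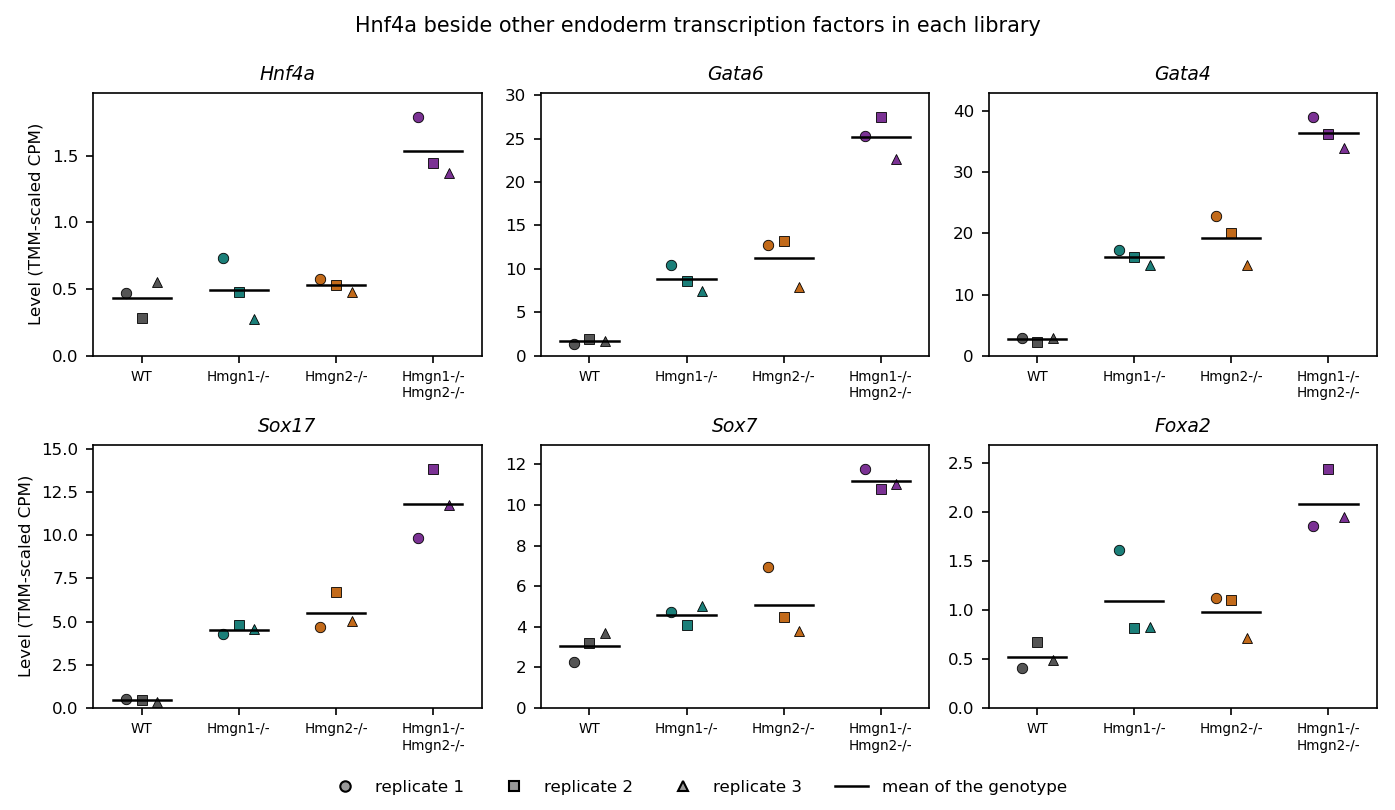
Levels of Hnf4a and of 5 further endoderm transcription factors in each library, as TMM CPM on an axis of its own for each gene; points are libraries and bars are the means of 3 replicates. Gata6, Gata4, Sox17, Sox7 and Foxa2 are higher in every knockout library than in WT, while Hnf4a is apart from WT in the double knockout alone.

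Proteins that assemble, remodel and take up lipoproteins form a list of 30 genes, with P4hb the most abundant. Of 28 tested, 3 were called higher in each knockout, Cubn, Amn and Dab2, which together take up Apoa1 and other cargo at the surface of visceral endoderm. The log2 FC of Cubn was 3.72, 3.88 and 5.38 in Hmgn1-/-, Hmgn2-/- and the double knockout, that of Amn 1.74, 1.79 and 2.66, and that of Dab2 2.76, 3.07 and 4.43. The receptor genes thus rose while their ligand Apoa1 stayed at 10 counts or fewer in every library. Lipc, a lipase of plasma lipoproteins, was called lower in each knockout. It had 37, 14 and 27 counts in WT, 2, 1 and 1 in Hmgn1-/-, 0, 0 and 5 in Hmgn2-/-, and 1, 0 and 4 in the double knockout. Lipg, another lipase, was called lower in Hmgn1-/- at -1.25, and was at -1.21 in Hmgn2-/- and -0.85 in the double knockout. Mttp, which loads lipid onto Apob, was at -0.45, -0.49 and -0.07 and was not called.

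The other apolipoproteins form a list of 12 genes, 7 of them tested, with Clu the most abundant. In each knockout 2 were called, both lower: Clu, at log2 FCs of -1.30, -1.35 and -1.14, and Apod, at -1.85, -1.84 and -1.98. Apoc1, a neighbour of Apoe on chromosome 7, was at -0.70, -0.60 and -0.76, under the fold limit like Apoe. The other carrier and plasma proteins form a list of 33 genes, of which 8 were tested and 15 were at or under 3 counts in each library, Alb among them. Those called were lower: F5, Fetub and Kng1 in Hmgn1-/-, Fetub in Hmgn2-/-, and Ahsg, Fetub and Kng1 in the double knockout. Fetub, the most abundant of them, was at -1.63, -2.01 and -1.98. Partners of Rbp4, Ttr and Trf in retinol and iron handling form a list of 22 genes, 17 of them tested, with the ferritin chain Ftl1 the most abundant. In Hmgn1-/- Hfe and Bmp6 were called higher and Slc40a1 and Aldh1a2 lower, and in Hmgn2-/- Bmp6 higher and Tfr2 lower. Hfe, Bmp6 and Stra6 were called higher in the double knockout and Slc40a1 and Aldh1a2 lower. Bmp6, a signal that raises hepcidin, was at 1.53, 1.60 and 2.53. Stra6, the membrane receptor of Rbp4, was at 0.55, 0.56 and 1.68, and Tfrc, the receptor of transferrin, at 0.24, 0.23 and 0.19.

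**Figure D4:**
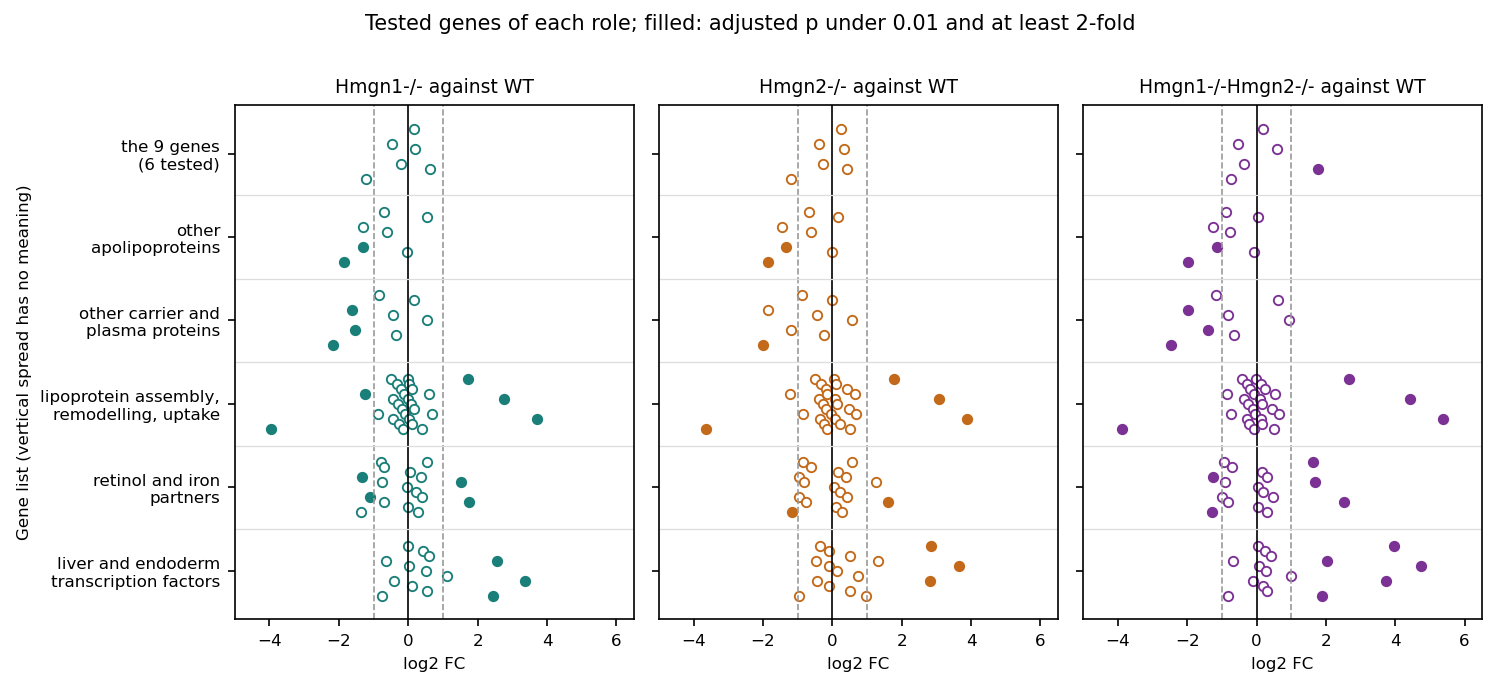
Log2 FC against WT of each gene tested in the 9-gene group and in 5 lists of genes that work with it, for the 3 knockouts; each point is a gene and is filled where it was called. Calls among transcription factors are all higher and those among other apolipoproteins and other carrier proteins all lower, while the group itself has 1 call.

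Markers of other cell types moved with these results. Of 14 visceral endoderm markers, 7 of 13 tested were called higher in Hmgn1-/- and 7 of 13 in Hmgn2-/-. These were Sox17, Amn, Gata4, Dab2, Gata6, Cubn and Pdgfra in both. In the double knockout 8 of 14 were, the same 7 with Foxa2. All of these but Pdgfra also belong to the transcription factor and lipoprotein lists above. The paper names Pdgfra as a mesoderm gene, and Sox17 and Foxa2 are also on the definitive endoderm list. These calls therefore do not set visceral endoderm apart from other endoderm. Rhox5 was called lower in Hmgn2-/-, at a log2 FC of -1.39, and was at -0.88 in Hmgn1-/- and -0.9999 in the double knockout. Cited1 was at -1.19, -1.09 and -0.37 in Hmgn1-/-, Hmgn2-/- and the double knockout, not called. Lrp2, the most abundant, was at -0.27, 0.07 and 0.64. Vil1 was at -0.02, -0.01 and 0.22 and Spink3 at 0.53, 0.00 and 0.93, neither called. Ihh, tested in the double knockout but in neither single knockout against WT, was at 1.50 there and was not called. The summed level of the 14 was 126, 155 and 148 TMM CPM in WT, 235, 193 and 196 in Hmgn1-/-, 293, 248 and 184 in Hmgn2-/-, and 494, 481 and 455 in the double knockout. None of the 14 was at or under 3 counts in every library, and the 3 double knockout libraries were highest, as for Hnf4a. Of 14 parietal endoderm markers, 2, 3 and 6 of 13 tested were called higher and 1 lower (Fst) in Hmgn1-/-, Hmgn2-/- and the double knockout, Lama1 and Pth1r in each, with Lamc1 the most abundant. Further markers lay lower under the fold limit. Vim was at log2 FCs of -0.69, -0.43 and -0.35, Nid1 at -0.62, -0.69 and -0.63, and Sparc at -0.92, -0.77 and -0.22. The median log2 FC of the 13 tested was -0.10, 0.01 and 0.55. The sum of the 14 was 1258, 1540 and 1552 TMM CPM in WT, 1505, 1382 and 1391 in Hmgn1-/-, 1664, 1584 and 1259 in Hmgn2-/-, and 2386, 2371 and 2213 in the double knockout. Of 10 definitive endoderm markers, Sox17 was called higher in each knockout and Foxa2 in the double knockout, Hhex was the most abundant, and Cer1 was at or under 3 counts in each library. Their sum ran from 20.3 to 22.2 TMM CPM in WT, from 22.7 to 27.7 in Hmgn1-/-, from 20.9 to 27.6 in Hmgn2-/- and from 29.8 to 33.1 in the double knockout. Sox17 carried that last rise, from a mean of 0.431 TMM CPM in WT to 11.8, beside 21.0 to 31.9 for the sum, and the median log2 FC of the 8 markers tested there was 0.02. Hmgn2-/- replicate 3 had the lowest visceral endoderm sum and the highest Apoe level of its genotype. Over all genes with at least 20 counts in a pair of libraries, it lay apart from its replicates: chi-square per degree of freedom, which is near 1 under counting error alone, was 36.4 and 20.6 against replicates 1 and 2, beside 8.11 between those and 3.40 to 12.1 in the other genotypes. The part of these cell types in the rise of Hnf4a was not tested.

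Summed fibroblast and macrophage markers lay lower in the knockouts, the latter mostly through Cd68. Of 10 fibroblast markers, 3 of 6 tested were called lower in each knockout (Col1a1, Col1a2 and Thy1), Thy1 was the most abundant, and Dcn and Lum were at or under 3 counts in each library. Their sum was 32.4, 27.0 and 32.8 TMM CPM in WT, 16.0, 15.7 and 15.1 in Hmgn1-/-, 18.4, 15.2 and 15.5 in Hmgn2-/-, and 17.5, 18.6 and 16.8 in the double knockout. Of 12 macrophage markers, Cd68 was called lower in each knockout and was the most abundant, with 4, 3 and 4 tested. Lyz2, Tyrobp, C1qb, C1qc and Emr1 (the table's name for Adgre1) were at or under 3 counts in each library. The macrophage sum was 21.5, 28.9 and 33.2 TMM CPM in WT, 9.99, 11.2 and 11.9 in Hmgn1-/-, 7.89, 9.46 and 13.0 in Hmgn2-/-, and 8.01, 8.80 and 12.01 in the double knockout. Cd68 made up a mean of 25.6 of the 27.9 TMM CPM of this sum in WT, and the median log2 FC of the few macrophage markers tested was above 0, at 0.18, 0.42 and 0.11 in Hmgn1-/-, Hmgn2-/- and the double knockout. Csf1r, which was under the filter, had 38 counts over the WT libraries and 7, 6 and 1 over those of the knockouts. Apoe lay below every WT library in the same 9 libraries as both sums, while Apom did so in the single knockouts and not throughout the double knockout. The part of these cells in the falls of Apoe was not tested.

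For each gene tested, the genes most like it over the 12 libraries were taken by Pearson's r of log2 TMM CPM, among 11555 genes whose counts averaged at least 50. These correlations are descriptions: the libraries fall into 4 genotypes and differ in depth, and the genes were searched for the highest values. The pattern most like that of Hnf4a was that of Plod2 (r 0.927), then Fgf3 (0.921), Myo6 (0.911), Tmem144 (0.901) and Atp6v0a1 (0.895). After each genotype's mean was subtracted, which leaves how replicates deviate, Ppard (0.936) was most like Hnf4a, and Plod2 (0.88) was the only gene in both sets of 5. For Apoe they were Ankrd35 (0.96), Ooep (0.957), 1700029P11Rik (0.952), Ldhb (0.95) and Plekha4 (0.949). For Trf they were Bmp4 (0.963), Nos3 (0.948), Mras (0.946), Agtrap (0.944) and Chrna9 (0.937). For Apom they were Inf2 (0.93), Itgb4 (0.929), Rhbdd2 (0.91), Rab3b (0.909) and Etfdh (0.908). For Rbp4 and Apob the highest were 2610318N02Rik (0.88) and Ptp4a1 (0.824). Hnf4a, Rbp4, Apob and Apom were thinly counted, with 232 to 269 counts each over the 12 libraries.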

How the data were processed

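RNA of 12 mESC libraries was sequenced after poly-A selection, and per the paper's methods the reads were aligned to mm10 with STAR. The authors deposited counts, whole numbers of reads per gene, without normalization. The counting program, annotation, strand and treatment of duplicate reads are not given in the sources used here. Tests were run in R 4.3.3 with edgeR 4.0.16 and limma 3.58.1: scaling was by TMM, genes had to pass edgeR's default filter, and quasi-likelihood tests were adjusted after Benjamini-Hochberg over all genes tested. Each pair of genotypes was fitted on its 6 libraries, and additivity on all 12. A gene was called at an adjusted p under 0.01 and a log2 FC of at least 1 in size. The p-values cover the spread between these samples, which the study calls biological triplicates. Replicate numbers were checked for pairing by the correlation of deviations from the group means: every same-numbered pair was over 0.1 in Hmgn1-/- against WT (0.133 to 0.314), the double knockout against WT (0.187 to 0.25), Hmgn2-/- against Hmgn1-/- (0.202 to 0.402) and the double knockout against Hmgn2-/- (0.165 to 0.59). The rule for naming took in all 9 genes, the called and the most abundant genes of each list, and up to 5 genes most like each gene tested. Further list genes were chosen after their values were seen (Apoc1, Mttp, Tfrc, Otx2, Eomes, Csf1r, Cited1, Vil1, Spink3, Ihh, Vim, Nid1, Sparc, Klf4, Nanog). So were genes named as lying at the floor of 3 counts. The members and lists were chosen with earlier results of these data known, and some genes of the lists and a motif are not reported here. Coordinates and promoters come from RefSeq on GRCm38, and exon lengths from GENCODE. The steps were tested on simulated data. Alternatives were the Wald test of DESeq2 1.42.0, RLE or upper quartile scaling, other filters and limits, all 12 libraries in a single fit, a replicate block, thinned counts, each replicate left out in turn, CPM, and longest-transcript lengths.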

Additional observations from a re-analysis of the deposited data

Results flagged for a closer look

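With 3 libraries in each genotype, no single gene was tested for a library standing apart; over all genes, Hmgn2-/- replicate 3 lay furthest from its replicates, at a chi-square per degree of freedom of 36.4 and 20.6 (3.40 to 12.1 in the other pairs). Among the 9 genes no difference between the knockouts passed the limits; the genes below come from the lists that were set beside them and were picked out because a test of the difference between knockouts, or of the departure from additivity, passed both limits. In the double knockout against Hmgn1-/-, the log2 FC of the endoderm transcription factors was 1.38 for Sox17, 1.18 for Gata4, 1.50 for Gata6 and 1.28 for Sox7. In the same comparison it was 1.67 for Dab2, 1.65 for Cubn and 1.00 for Bmp6, and among other endoderm markers 1.36 for Pdgfra, 1.49 for Col4a1, 1.51 for Col4a2, 1.80 for Plat and 1.34 for Pth1r. Against Hmgn2-/-, it was 1.36 for Dab2 and 1.30 for Pth1r. That comparison called 1 gene in all without Hmgn2-/- replicate 2, double knockout replicate 2 or double knockout replicate 3, so at least 1 of this pair was not called there. Hnf4a, at 1.60 and 1.53 in these comparisons, missed the limit on p.

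The departure from additivity was negative, the double knockout lying below the sum of the single knockouts, for Sox17 (-2.27), Gata4 (-1.64), Gata6 (-1.30), Cubn (-2.24), Dab2 (-1.39) and Pdgfra (-2.39), each of which was higher in all 3 knockouts than in WT. It was positive for Clu (1.52), Apod (1.73), Fetub (1.67), Cd68 (1.54), Col1a1 (1.50), Col1a2 (3.23), Thy1 (1.94), Fst (1.87), Rhox5 (1.28), Snai1 (1.23), Sparc (1.49) and Plat (1.80). For Hnf4a it was 1.37 and for Apom 1.70, both short of the limit on p.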

How the results depend on the processing

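The rise of Hnf4a in the double knockout was called in each of the 13 alternatives that tested it, at a log2 FC of 1.59 to 1.94. With at least 10 counts required in every library 0 of the 9 genes were called there, since WT replicate 2 had 5 counts of Hnf4a and the gene was not tested. In Hmgn1-/- against WT, 1 gene, Apom, was called with upper quartile scaling, no filter, at least 10 counts, an adjusted p under 0.05 or the replicate block, and 0 to 1 with a library left out (1 without WT replicate 1, where Apom was at -1.41). Without a fold limit the genes called were 2 in Hmgn1-/- and 3 in the double knockout, of 2412 and 2544 in all, with 1400 in all for Hmgn2-/-, 48 for Hmgn2-/- against Hmgn1-/-, 150 for the double knockout against Hmgn1-/- and 905 for the departure from additivity. An adjusted p under 0.05 called 1 gene, Apom, in Hmgn2-/- against WT and for the departure from additivity (798 genes in all), and 1, Hnf4a, in the double knockout against Hmgn1-/-. No filter called Hnf4a there as well (1 gene, log2 FC 1.60).

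The double knockout against Hmgn2-/- had 6 genes called in all, and 29 by DESeq2, 21 without a filter, 24 at an adjusted p under 0.05, 18 in a single fit of 12 libraries, 32 with the replicate block and 1 to 12 with a library left out. For other counts that moved, the cause was not tested. The sign of small changes turned for Apob in Hmgn1-/- (-0.17 with thinned counts, -0.10 to 0.49 with a library left out), Apob in the double knockout (-0.17 to 0.50), Hnf4a in Hmgn1-/- (-0.26 to 0.43) and Hnf4a in Hmgn2-/- against Hmgn1-/- (-0.20 to 0.50), none of them called.

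Same-numbered replicates of Hmgn2-/- and WT (0.081 to 0.316) and of the double knockout and Hmgn1-/- (0.064 to 0.425) correlated positively but not all over 0.1. Both comparisons thus missed the limit set for pairing, which does not show that their replicates are unpaired. The replicate block gave 676 genes against 724 in the first and 95 against 70 in the second, where it called Hnf4a (1.63, adjusted p 0.00221 by edgeR's quasi-likelihood test, Benjamini-Hochberg adjusted; 0.00221 to 0.104 over the alternatives). It changed no other call among the 9 genes than those of Apom and Hnf4a given, with 902 genes called in Hmgn1-/- against WT, 942 in the double knockout against WT, 30 in Hmgn2-/- against Hmgn1-/- and 582 for the departure from additivity.

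Depth limits what can be said of Afp, Ttr and Apoa1, and Apob, Apom, Rbp4 and Hnf4a had at most 56 counts in a library. Floors and intervals cover counting error only, since reads are not independent molecules. Lengths of the longest transcript moved 12 levels per kilobase by more than the spread between replicates (Apoe in WT to 389 RPKM) and kept the order of the 9 genes in WT. Without strand information, reads of antisense transcripts could enter. The exons of Hnf4aos, antisense to Hnf4a, and of Gm43449, antisense to Afp, share 0 bases with the exons of those genes. Each genotype is 1 line, and protein was not analysed here.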
